A study of Mus musculus with 8 samples.

Results

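Imprinted growth genes are genes that are read mainly from a single parental copy and that act on body and organ growth before and shortly after birth. The set described here was given by symbol as Igf2, H19, Cdkn1c, Dlk1, Meg3, Dio3os, Plagl1, Peg3, Grb10 and Mest, 10 of the 24411 genes in the deposited count table. All 10 were found and all 10 passed the filter on low counts. Their RNA was measured in small intestine at an age of 14 days. All mice were of the hUGT1 transgenic strain, so that vehicle and arsenic animals alike carry the human UGT1 genes for UDP-glucuronosyltransferases. Pups given vehicle, which the labels do not describe further, were compared with pups given 10 mg/kg arsenic, and both groups are labelled 24 h. Each group held 12 mice, pooled 3 to a library, so that 4 vehicle libraries stood against 4 arsenic libraries and animals within a pool cannot be told apart.

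At imprinted genes DNA methylation set in the egg or the sperm at a control region marks the copy of that parent, and according to the cluster the marked copy is the silent or the active copy of a gene. Genes that favour growth, such as the growth factor gene Igf2, are mostly read from the paternal copy, and genes that restrain it, such as Cdkn1c, mostly from the maternal copy. Many of these genes form a co-regulated network in mouse organs whose levels are high before birth and decline afterwards, and the zinc finger protein PLAGL1 is a known regulator within it. They lie in clusters, among them the neighbouring H19 and Igf2 genes and the Dlk1 to Dio3 domain, where noncoding genes such as H19 and Meg3 come from the maternal copy.

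Total counts per library ran from 18786779 to 29417666. All tested markers of epithelium were detected, with a summed level of 7480 to 7750 TMM-scaled CPM (counts scaled to a common library size) with vehicle and 8900 to 9370 CPM with arsenic, which matches the labelled tissue. These markers did not move as a group. Of the 9, 4 were higher with arsenic, Krt8 and Krt19 among them, and 3 lower, Epcam among them. Over all tested genes 32.3% were higher and 33% lower. The median log2 change of the epithelial markers was 0.09. Pancreas markers were present too (2090 to 3980 CPM with vehicle, 2040 to 4570 CPM with arsenic, 0 of 7 called). The pools differed in their sex makeup, since Xist ran from 10.1 to 1390 CPM, and values without vehicle replicate 4 and arsenic replicate 3, the libraries at its extremes, are given below. Nothing states that pools came from separate litters, so p-values measure the spread between these pools.

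With arsenic, 6 of the 10 genes fell and none rose. Dio3os fell 20.9-fold, Cdkn1c 2.42-fold, Igf2 1.88-fold, Plagl1 1.47-fold, Mest 1.39-fold and H19 1.2-fold. For Grb10, Peg3, Meg3 and Dlk1 no difference passed the test. These results came from edgeR's quasi-likelihood test over 15298 genes with Benjamini-Hochberg adjustment and a threshold of 0.05, under which 33% of all tested genes were lower in arsenic and 65.3% were called in either direction. The groups did not overlap for the same 6 genes, where 29.3% of all tested genes lay wholly lower in arsenic, 30.1% wholly higher and 59.4% either way. The median log2 change was -0.37 over the 10 genes and -0.03 over all tested genes. At least 2-fold falls were seen for 2 of the 10 genes and for 3.54% of all tested genes. The calls of the 10 genes were the same without the libraries at the extremes of Xist.

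**Figure D1:**
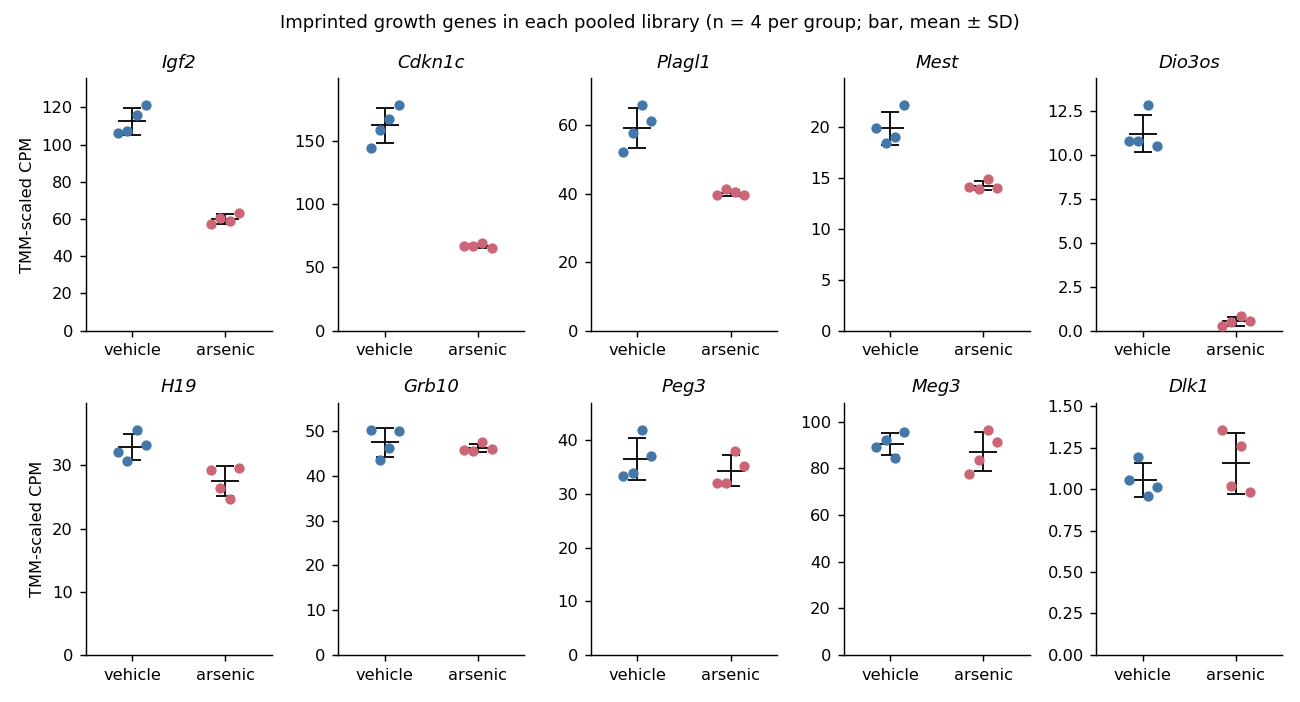
TMM-scaled CPM (vertical axes, each starting at 0) of the 10 imprinted growth genes in the 4 vehicle and 4 arsenic libraries. Points are pooled libraries and bars are mean ± SD. The arsenic points lie wholly below the vehicle points for Igf2, Cdkn1c, Plagl1, Mest, Dio3os and H19, and overlap them for Grb10, Peg3, Meg3 and Dlk1.

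Levels between genes were compared per kilobase of exon (RPKM, TMM-scaled, with the exon lengths of GENCODE M21). With vehicle Cdkn1c was the highest at 79.4 ± 6.91 RPKM (SD, n = 4), followed by Igf2 at 19.7 ± 1.25 RPKM and H19 at 13.4 ± 0.836 RPKM. Plagl1 (7.57 RPKM) and Dio3os (6.65 RPKM) came next, with overlapping libraries. Grb10 (5.22 RPKM), Mest (5.04 RPKM) and Meg3 (4.99 RPKM) could not be ordered beyond their spread. Peg3 stood at 2.74 RPKM and Dlk1 at the end of the order with 0.187 RPKM. With arsenic Cdkn1c still led at 32.8 RPKM, Igf2 (10.5 RPKM) and H19 (11.2 RPKM) overlapped, and Dio3os (0.309 RPKM) had dropped beside Dlk1 (0.204 RPKM). The middle of this order depends on the length used, because with the longest transcript as the length Grb10 (9.38 RPKM) stood above Dio3os (8.11 RPKM) with vehicle.

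Igf2 codes for insulin-like growth factor 2, the main fetal growth factor of this family, and lies on chromosome 7 of mm10 from 142650766 to 142666816 on the minus strand (ENSMUSG00000048583). Its level was 106, 107, 116 and 121 CPM in the 4 vehicle libraries and 57.3, 60.4, 58.7 and 63.5 CPM in the 4 arsenic libraries. The lowest vehicle library was thus well above the highest arsenic library. Its log2 change was -0.91 (SE 0.05, adjusted p = 5.06e-10 in edgeR). The H19 gene, a noncoding RNA that shares enhancers and the imprinting control region with Igf2, lies 72.6 kb away (142575529 to 142578143, ENSMUSG00000000031). H19 was 32.2, 30.8, 35.6 and 33.2 CPM with vehicle and 29.3, 26.5, 24.6 and 29.7 CPM with arsenic. The groups of H19 lay close to each other without overlapping, and its log2 change was -0.26 (SE 0.06, adjusted p = 0.00264 in edgeR), the smallest among the 6 genes called.

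Since H19 and Igf2 are read from opposite parental copies under a shared control region, their ratio was taken within each library, where it does not depend on library scaling. There were 3.30, 3.48, 3.26 and 3.65 Igf2 counts for each H19 count with vehicle, and 1.96, 2.28, 2.38 and 2.14 with arsenic. The ratio was lower in all 4 arsenic libraries. That its groups lay apart follows from the larger fall of Igf2 beside that of H19. The ratio is therefore given as a description only, and it is 1 of 4 such ratios chosen after the values were seen. The antisense gene Igf2os, whose span overlaps that of Igf2 on the other strand, stood at 6.13 ± 0.730 and 6.10 ± 0.930 CPM (adjusted p = 0.960 in edgeR). No source used here states whether strand was used in counting, and without it reads from the overlap of Igf2 and Igf2os cannot be told apart.

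Among the genes of the IGF2 axis 10 of 18 tested fell and 3 rose, beside 33% and 32.3% of all tested genes, with a median log2 change of -0.19 (all genes -0.03). Igf2r, which codes for the receptor that clears IGF2 and is itself imprinted, fell from 398 ± 17.3 to 286 ± 18.1 CPM. The signalling receptors Igf1r (log2 -0.43) and Insr (-0.65), the adaptor Grb7 (-0.52) and the binding protein gene Igfbp3 (-0.84) fell as well. The members that rose were Igfbp2 (log2 1.23), Hmga2 (0.62) and Igfbp5 (0.43), named after their values were seen. Igf2bp1, which codes for a fetal protein that binds Igf2 mRNA, was at 0.716 ± 0.225 and 0.687 ± 0.159 CPM, near the lower limit of what was tested (adjusted p = 0.993).

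Cdkn1c codes for p57, an inhibitor of cyclin-dependent kinases that restrains growth, and is read from the maternal copy (chromosome 7, 143458339 to 143461050, minus strand, ENSMUSG00000037664). Its level was 145, 158, 167 and 178 CPM with vehicle and 66.7, 66.7, 68.8 and 65.3 CPM with arsenic. The arsenic libraries were much closer to each other than the vehicle libraries were, and the groups were far apart (log2 -1.27, SE 0.05, adjusted p = 5.22e-11 in edgeR). Of the other inhibitors and G1 genes 7 of 13 tested rose and 3 fell, where 32.3% of all tested genes rose and 33% fell. Of the same inhibitor family, Cdkn1a, which codes for p21, rose from 107 ± 5.42 to 165 ± 10.8 CPM, and Cdkn1b, which codes for p27, fell from 61.9 ± 1.53 to 49.97 ± 3.68 CPM. The inhibitor gene Cdkn2d fell too (log2 -0.60), as did the cyclin gene Ccnd3 (-0.10), whereas the cyclin genes Ccne1 (log2 1.06), Ccne2 (0.63) and Ccnd2 (0.46) rose. Cdkn1b, Cdkn2d and Ccnd3 were named after their values were seen.

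The cluster of Cdkn1c held changes in both directions. Of 10 tested neighbours, the nearest 5 on each side, 5 rose and 3 fell, where 32.3% of all tested genes rose and 33% fell. Phlda2, a maternally read gene 40.5 kb from Cdkn1c that restrains placental growth in mice, had 11, 21, 9 and 10 counts with vehicle and 159, 100, 142 and 85 counts with arsenic. Every arsenic library thus held several times the count of any vehicle library, and Phlda2 rose from 0.537 ± 0.169 to 4.61 ± 0.806 CPM (log2 3.08, SE 0.21, adjusted p = 6.23e-09 in edgeR). Slc22a18, a transporter gene between them, rose by a log2 change of 0.23, and Kcnq1ot1, the noncoding RNA read from the paternal copy that silences the cluster there, fell by 0.38 on the log2 scale. The ratio of Cdkn1c to Phlda2 counts was 360, 202, 349 and 368 with vehicle and 11.7, 15.7, 14.6 and 17.2 with arsenic. That its groups lay apart follows from the opposite changes of both genes. The ratio is therefore given as a description only, for a pair chosen after its values were seen.

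Grb10 codes for an adaptor that dampens insulin and IGF receptor signalling (chromosome 11, 11930508 to 12038683, minus strand, ENSMUSG00000020176). It stood at 50.3, 43.5, 46.2 and 49.9 CPM with vehicle and 45.8, 45.6, 47.5 and 46.0 CPM with arsenic, so that the arsenic libraries lay within the vehicle range. Its log2 change of -0.04 had a 95% interval from -0.15 to 0.08 (adjusted p = 0.512 in edgeR). The tested genes on both sides of Grb10, which share an imprinted domain with it, rose. They were Ddc, the aromatic amino acid decarboxylase gene, from 52.8 ± 4.67 to 134 ± 11.6 CPM, and the actin nucleator gene Cobl, from 56.3 ± 4.64 to 112 ± 11.01 CPM.

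Plagl1 codes for a zinc finger transcription factor that activates other genes of the imprinted network, Igf2 and H19 among them, in mice (chromosome 10, 13060504 to 13131694, plus strand, ENSMUSG00000019817). Its level was 52.1, 57.6, 65.8 and 61.2 CPM with vehicle and 39.6, 41.4, 40.6 and 39.5 CPM with arsenic. The vehicle libraries were widely spread and all above the arsenic ones (log2 -0.55, SE 0.06, adjusted p = 9.41e-07 in edgeR). Of its 10 tested neighbours, the nearest 5 on each side, 4 fell and 3 rose, beside 33% and 32.3% of all tested genes. The nearest on each side went the other way, Sf3b5 (log2 0.69) and Ltv1 (0.83). Those that fell included Fuca2, a lysosomal fucosidase gene 368 kb away, from 737 ± 40.2 to 364 ± 3.59 CPM.

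Peg3 and Mest are paternally read genes that are needed for normal growth and maternal care in mice. Peg3 codes for a zinc finger protein (chromosome 7, 6703892 to 6730431, minus strand, ENSMUSG00000002265). It was 33.4, 33.8, 41.9 and 37.0 CPM with vehicle and 32.0, 32.0, 38.0 and 35.2 CPM with arsenic, with overlapping groups. Its log2 change of -0.08 had a 95% interval from -0.26 to 0.10 (adjusted p = 0.340 in edgeR). Mest codes for a membrane protein of the hydrolase fold (chromosome 6, 30723547 to 30748465, plus strand, ENSMUSG00000051855). It was 19.9, 18.4, 19.02 and 22.1 CPM with vehicle and 14.1, 13.9, 14.9 and 14.0 CPM with arsenic. All arsenic libraries of Mest were below the vehicle ones (log2 -0.48, SE 0.06, adjusted p = 1.19e-05 in edgeR). Copg2, a coat protein gene whose span overlaps that of Mest on the other strand, rose from 48.7 ± 0.0981 to 56.2 ± 1.18 CPM, and reads from the overlap cannot be apportioned here.

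**Figure D2:**
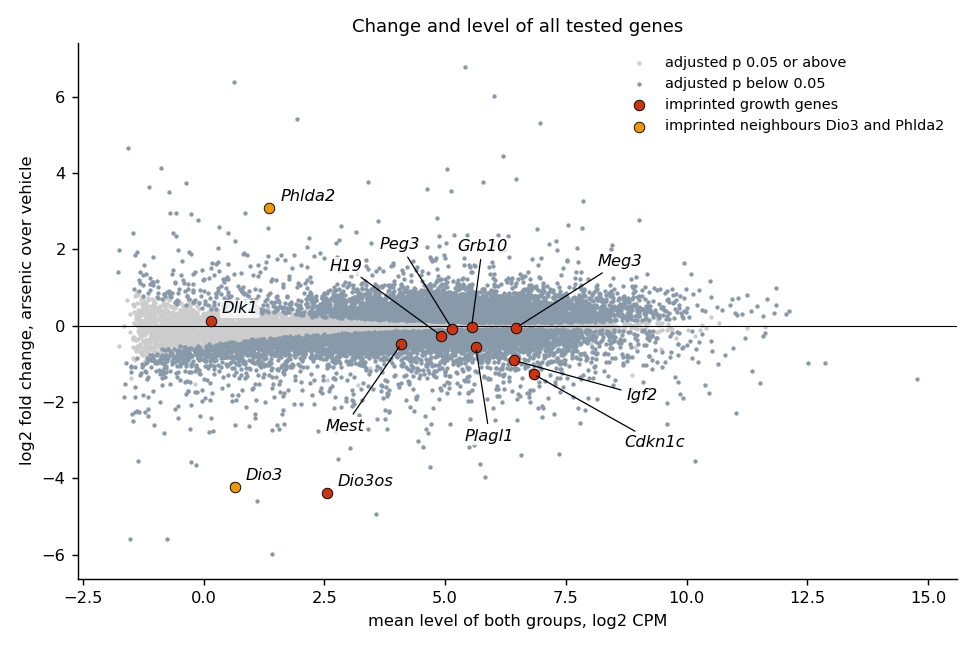
Log2 fold change of arsenic over vehicle (vertical axis) against the mean level of both groups in log2 CPM (horizontal axis) for all 15298 tested genes, with the 10 imprinted growth genes in red and their neighbours Dio3 and Phlda2 in orange. Dio3os (-4.39) and Dio3 (-4.23) lie far below the body of genes and Phlda2 (3.08) above it, while the other 9 imprinted growth genes lie between -1.27 and 0.13.

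The strongest fall was that of Dio3os, a noncoding gene at the distal end of the Dlk1 to Dio3 domain on chromosome 12 (110275385 to 110278172, minus strand, ENSMUSG00000113581). There were 295, 288, 240 and 217 counts of Dio3os with vehicle and 7, 11, 25 and 12 with arsenic, or 10.8, 10.8, 12.8 and 10.5 CPM against 0.250, 0.467, 0.8292 and 0.536 CPM. The highest arsenic library was thus more than an order of magnitude below the lowest vehicle library. The log2 change was -4.39 (SE 0.18, adjusted p = 4.97e-11 in edgeR), with a 95% interval from -4.84 to -3.94. Dio3, on the other strand with 0.896 kb between the annotated spans, codes for the deiodinase that inactivates thyroid hormone and protects fetal tissue from it. Dio3 had 92, 74, 54 and 60 counts with vehicle and 3, 5, 3 and 5 counts with arsenic, and fell from 2.97 ± 0.261 to 0.161 ± 0.0664 CPM (log2 -4.23, SE 0.24, adjusted p = 9.54e-10 in edgeR). With so few arsenic counts the size of the fall of Dio3 is less certain than its direction, and the ratio of Dio3os to Dio3 counts did not differ detectably (3.21 to 4.44 with vehicle, 2.2 to 8.33 with arsenic, log2 difference -0.24, exact permutation test, two-sided, p = 0.686). That difference was -0.70 on the log2 scale without arsenic replicate 3, whose ratio of 8.33 rests on 3 counts of Dio3.

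The starts of Dio3os and Dio3 point away from each other, and their promoters are shown because both genes fell together, with that of Meg3 for the same domain where no change passed the test. The sequences are RefSeq windows on GRCm38.p6, from 250 bases before to 50 after a start, printed 5′ to 3′ on the strand of the gene, and capitals mark CpG sites. The windows are chr12:110278019-110278318 on the minus strand for Dio3os, chr12:110278980-110279279 on the plus strand for Dio3 and chr12:109540746-109541045 on the plus strand for Meg3.
Dio3os: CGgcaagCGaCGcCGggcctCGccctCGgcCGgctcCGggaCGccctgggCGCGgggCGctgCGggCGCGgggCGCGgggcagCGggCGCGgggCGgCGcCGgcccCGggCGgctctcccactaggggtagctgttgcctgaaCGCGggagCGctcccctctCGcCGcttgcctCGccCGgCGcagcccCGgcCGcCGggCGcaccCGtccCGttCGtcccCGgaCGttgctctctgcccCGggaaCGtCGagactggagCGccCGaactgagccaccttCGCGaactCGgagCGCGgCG
Dio3: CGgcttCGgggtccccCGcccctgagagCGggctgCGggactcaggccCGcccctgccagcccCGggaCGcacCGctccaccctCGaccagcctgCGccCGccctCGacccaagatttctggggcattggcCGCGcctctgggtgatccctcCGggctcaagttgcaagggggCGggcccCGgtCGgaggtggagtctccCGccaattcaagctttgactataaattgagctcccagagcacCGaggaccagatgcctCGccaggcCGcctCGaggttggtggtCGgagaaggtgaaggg
Meg3: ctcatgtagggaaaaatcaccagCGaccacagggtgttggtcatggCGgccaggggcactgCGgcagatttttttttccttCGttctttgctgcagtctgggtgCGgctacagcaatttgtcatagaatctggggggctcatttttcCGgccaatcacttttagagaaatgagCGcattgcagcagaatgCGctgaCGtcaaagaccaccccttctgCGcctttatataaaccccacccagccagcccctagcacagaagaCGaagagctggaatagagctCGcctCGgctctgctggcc
The Dio3os window held 53 CpG sites, more than 99.5% of 32851 promoter windows of that length, the Dio3 window held 25 and the printed Meg3 window 13, where the median was 7. A second Meg3 window, chr12:109545148-109545447, which is not printed, held 1 CpG site. The TATAAA box, present in 13.6% of all windows on either strand, began 31 bases before the start of Dio3 and 25 bases before that of the printed Meg3 window, and was found neither in the window of Dio3os nor in the second window of Meg3. On both strands of the 15 windows listed for 8 of the 10 genes, the antioxidant response element core TGACNNNGC (12.4% of all windows) was found in 1 window of Igf2, and the palindrome GGGGCCCC bound by PLAGL1 (1.08% of all windows) in that of Peg3.

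The other genes of the chromosome 12 domain did not follow Dio3os. Meg3, a noncoding RNA with growth-restraining activity (109541001 to 109571726, ENSMUSG00000021268), was 89.1, 91.9, 84.6 and 95.7 CPM with vehicle and 77.3, 83.5, 96.5 and 91.0 CPM with arsenic. The groups of Meg3 overlapped widely (log2 -0.05, 95% interval -0.20 to 0.09, adjusted p = 0.457 in edgeR). Dlk1 codes for a membrane protein related to the Notch ligands that holds back cell differentiation (109452823 to 109463336, plus strand, ENSMUSG00000040856). It had 29, 32, 18 and 21 counts with vehicle and 38, 24, 38 and 22 with arsenic. At about 1.06 ± 0.101 and 1.16 ± 0.183 CPM its groups overlapped. Its log2 change of 0.13 had a 95% interval from -0.32 to 0.59 (adjusted p = 0.550 in edgeR), so that a change of a size within that interval remains possible. The noncoding genes Rian (23.5 ± 1.06 and 25.8 ± 2.02 CPM, adjusted p = 0.0616) and Mirg (0.721 ± 0.185 and 0.810 ± 0.108 CPM, adjusted p = 0.513), which follow Meg3 on the same strand, did not pass either. Without vehicle replicate 3 (adjusted p = 0.0434) or without arsenic replicate 2 (0.0184) Rian was called higher. The ratio of Dio3os to Meg3 counts was 0.121, 0.117, 0.151 and 0.109 with vehicle and 0.00323, 0.00560, 0.00860 and 0.00589 with arsenic. This pair was chosen after its values were seen. That its groups lay apart follows from the fall of Dio3os beside the small differences of Meg3, so the ratio is given as a description only.

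**Figure D3:**
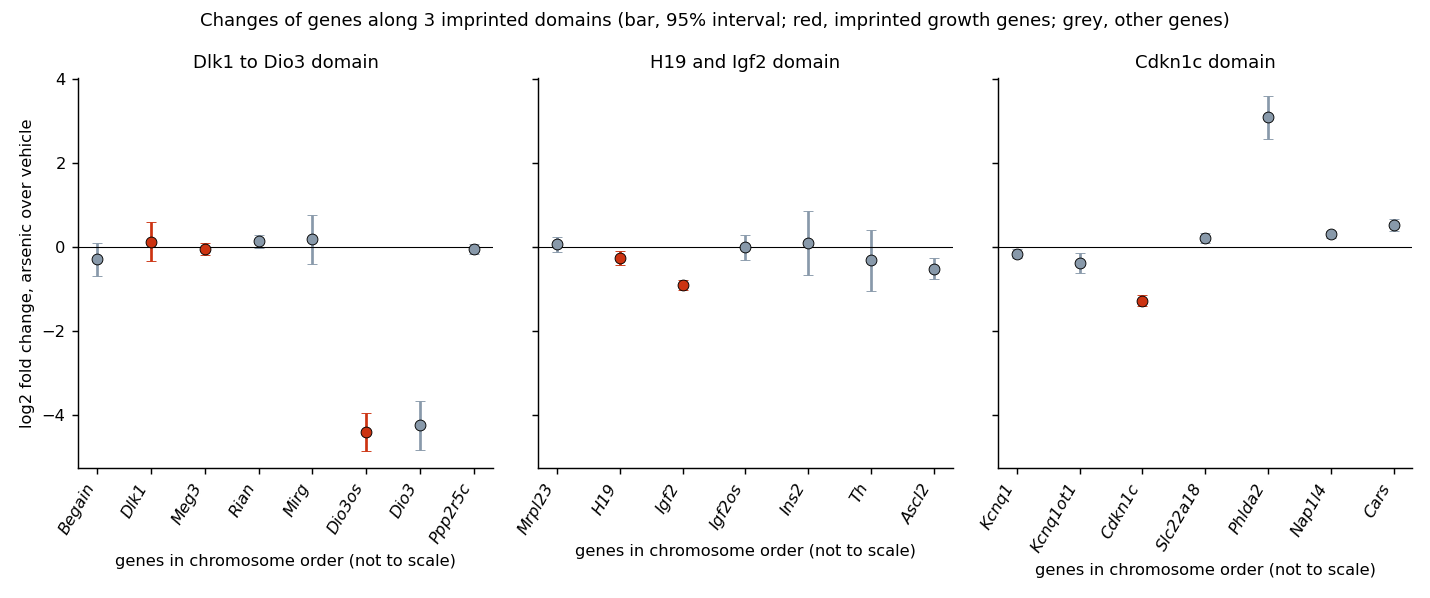
Log2 fold change of arsenic over vehicle (vertical axis) for genes in chromosome order along 3 imprinted domains (horizontal axes, not to scale), with 95% intervals from edgeR. Dio3os (-4.39) and Dio3 (-4.23) stand apart from Dlk1, Meg3, Rian and Mirg, Igf2 (-0.91) lies below H19 (-0.26), and Cdkn1c (-1.27) and Phlda2 (3.08) lie on opposite sides of 0.

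**Figure D4:**
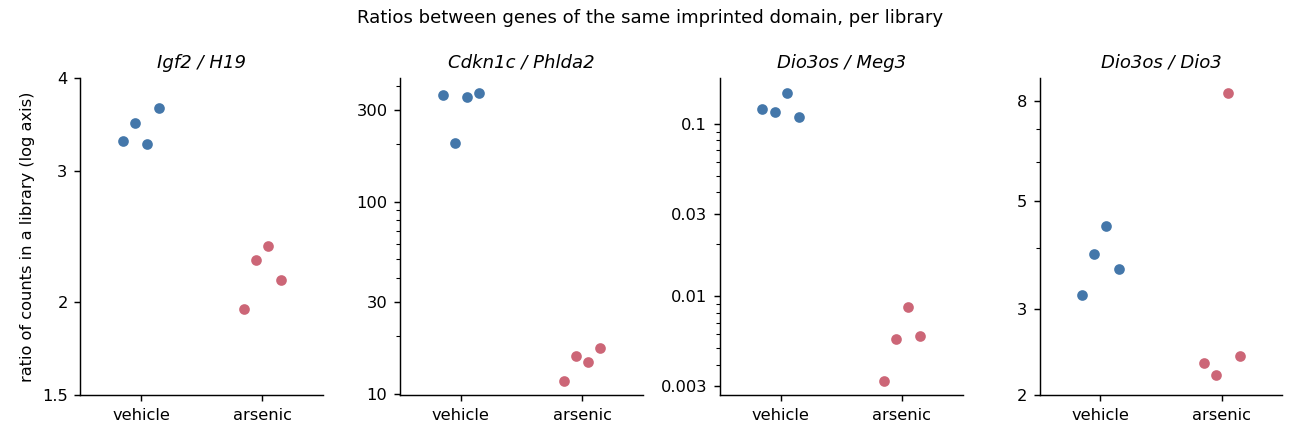
Ratio of counts between genes of the same imprinted domain in each library (log axes), with 4 vehicle and 4 arsenic libraries as points. The groups are apart for Igf2 to H19 (3.42 ± 0.179 against 2.19 ± 0.184), Cdkn1c to Phlda2 and Dio3os to Meg3, and overlap for Dio3os to Dio3.

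Genes of thyroid hormone handling and response, the pathway of Dio3, fell in 6 of 11 tested cases and rose in 2, beside 33% and 32.3% of all tested genes. Dio1, which codes for the deiodinase that activates and clears thyroid hormone, fell from 129 ± 4.45 to 39.3 ± 5.60 CPM (log2 -1.72, SE 0.07), the receptor gene Thrb by 0.40 and the hormone-induced gene Klf9 by 0.28 on the log2 scale. Those that rose were the transporter gene Slc16a10 (log2 0.24) and the corepressor gene Hr (0.15, adjusted p = 0.0421 in edgeR). Only 1 gene of this list rose in 9 of 17 alternatives, among them those without vehicle replicate 3 or 4 or without arsenic replicate 1, 2 or 3. In the Notch pathway, to which DLK1 is related, 10 of 13 tested genes fell and none rose, beside 33% and 32.3% of all tested genes. Those that fell included Notch1 (log2 -0.40), Hey1 (-0.53), Dll1 (-0.30) and Notch4 (-0.29). Notch4 and Dll4 (-0.24) are known from vessels, and 8 of 8 endothelial markers fell as well (median log2 -0.49), whose part in the Notch counts was not tested.

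Of 47 other genes described as imprinted in mice 39 were tested, of which 12 fell (30.8%) and 7 rose (17.9%), beside 33% and 32.3% of all tested genes. Their median log2 change was -0.10. Beside Dio3 and Phlda2, those with the smallest p were the splicing factor relative Zrsr1 (log2 -0.92) and Ppp1r9a (-0.73), which codes for the actin-binding neurabin. Peg10 (2.62 ± 0.628 and 2.83 ± 0.361 CPM) and Ndn, which codes for the growth suppressor necdin (8.89 ± 0.432 and 8.81 ± 1.06 CPM), did not pass. Rtl1, with 0 to 2 counts in a library, and Usp29, with 4 to 14, were too low to be tested, and Snrpn was listed at 0 counts in every library. Of 16 tested genes that set, keep or remove the methylation and chromatin marks of imprints 8 rose and 7 fell. Over all tested genes 32.3% rose and 33% fell. Those of the list that fell included Tet1 (log2 -0.52), Tet2 (-0.30) and Tet3 (-0.28). The products of these Tet genes oxidise methylated DNA and so act towards its removal. Dnmt3a (log2 -0.31), Zfp57 (-0.24) and Zfp445 (-0.12), which are not of that kind, fell as well. The Tet genes, Dnmt3a, Zfp57 and Zfp445 were named after their values were seen. Hells, a chromatin remodeller needed for DNA methylation, rose from 28.8 ± 2.80 to 56.3 ± 1.2 CPM, Uhrf1, which guides maintenance methylation, by a log2 change of 0.56 and Smchd1 by 0.42, while the CTCF relative Ctcfl fell from 4.30 ± 0.649 to 1.19 ± 0.406 CPM.

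In whole tissue, fewer cells of a type and less RNA per cell cannot be told apart. The counts of markers in this paragraph stand beside 33% of all tested genes lower and 32.3% higher in arsenic. The fibroblast count with all libraries is near that share. The summed level of 10 fibroblast markers was 3120 to 3420 CPM with vehicle and 3020 to 3390 CPM with arsenic, with 3 of 10 lower (5 without arsenic replicate 3) and none higher. Smooth muscle markers summed to 1960 to 2160 CPM with vehicle and 2330 to 2840 CPM with arsenic, with 7 of 8 higher. Endothelial markers summed to 448 to 488 and 320 to 348 CPM, with 8 of 8 lower (median log2 -0.49), and leukocyte markers to 278 to 304 and 189 to 216 CPM, with 7 of 8 lower. Neuron and glia markers summed to 129 to 136 and 69.9 to 82.6 CPM, with 2 of 8 lower, which were Ret (88.0 ± 2.72 to 33.5 ± 1.42 CPM) and S100b (6.47 ± 0.517 to 1.58 ± 0.507 CPM). Ret made up most of the vehicle sum, and the median log2 change of the 8 markers was 0.07. Liver markers were low (99.0 to 122 and 51.0 to 59.5 CPM, 4 of 7 lower, led by Serpina1a at log2 -2.82), and mesothelial markers lower still (8.17 to 15.1 and 10.1 to 15.9 CPM, 0 of 5 called). Single libraries decided some of these counts. Without vehicle replicate 2, 2 mesothelial and 2 pancreas markers were higher, and without arsenic replicate 4, 2 pancreas markers were lower. Without vehicle replicate 3 and without arsenic replicate 2 or 3, 1 pancreas marker was called, without vehicle replicate 4 or arsenic replicate 3, 1 mesothelial marker was higher, and without vehicle replicate 4 or arsenic replicate 1, 1 neuron or glia marker was higher. No marker of these lists was at 0 in all libraries, and the part of these cell types in the changes of the imprinted growth genes was not tested.

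After each group's mean was taken out, the median Pearson r of log2 CPM over the 45 pairs of the 10 genes across the 8 libraries was 0.175, given as a description with no p. The highest r were those of Grb10 with Mest (0.824), Cdkn1c with Plagl1 (0.814) and Meg3 with Dio3os (0.742), and the lowest that of Igf2 with Dlk1 (-0.737). Values of r for Dio3os and Dlk1 rest on few counts. Dio3os had 7, 11, 25 and 12 counts in the arsenic libraries, and Dlk1 had 18 to 38 in any library. For each gene the closest of 11355 other genes by the same measure had r between 0.959 and 0.990, values picked as the highest of many over 8 libraries. They were Lpar1 and Gucy2c for Igf2, Slc30a4 and Usp32 for H19, Vwa5a and Bscl2 for Cdkn1c, Bcorl1 and Arid5b for Plagl1, and Elavl4 and Cdc42ep3 for Mest. For Dio3os they were Tctn1 and Txnrd3, for Meg3 Gpsm2 and Arl2bp, for Dlk1 Lrpap1 and Psmd4, for Peg3 Pbxip1 and Gipc1, and for Grb10 Ska3 and Cask.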

How the data were processed

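RNA of the small intestine was extracted with TRIzol and made into libraries with the Illumina Stranded mRNA kit, per the labels' protocols, with 3 mice pooled per library. The submitters' processing notes name STAR 2.7.9a, bcl2fastq 2.20, mm10 and DESeq2 1.34.0. Which program counted reads, on which annotation and with which strandedness, is not stated. Every test started from the deposited table of raw counts, which lists 24411 symbols. The authors' deposited table of log2 fold changes and adjusted p-values was read for comparison, and gave Igf2 a log2 change of -0.90, Cdkn1c -1.26 and Dio3os -4.39.

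Genes were kept by filterByExpr (minimum count 10, minimum total 15) and scaled by TMM, and edgeR 4.0.16 in R 4.3.3 fitted group as the only term (glmQLFit, glmQLFTest, two-sided, 15298 genes, Benjamini-Hochberg, threshold 0.05). SEs were taken from the log2 change and its F statistic, and 95% intervals from a t distribution on 6 residual degrees of freedom. CPM were scaled by TMM. Values after ± are SDs over the n = 4 pools of a group, and log2 CPM had a prior count of 2. Groups came from the treatment label. The script was tested on simulated data. Alternatives used other scalings, filters, tests (DESeq2 1.42.0, limma 3.58.1 voom), single libraries left out, and the sex makeup of the pools.

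The members, the 15 other gene lists and the tests were chosen with earlier results of these data known. Named were all 10 members, a fixed set of 13 relatives, up to 4 genes with the smallest p of each list, the nearest or like-moving of 10 neighbours per member, and the 2 genes most like each member. Further names were chosen after their values were seen. Positions and exon lengths are from GENCODE M21 (mm10), and promoter windows from RefSeq on GRCm38.p6, which held 8 of the 10 genes.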

Additional observations from a re-analysis of the deposited data

Results flagged for a closer look

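Dio3os in vehicle replicate 3, at 12.8 CPM, stood apart from the other 3 vehicle libraries (10.5 to 10.8 CPM) by more than the usual limit for a group of 4, a gap of 0.876 of the group's range. Chance marks about 1 group in 20 in this way, and both groups of every member, of Dio3 and of Phlda2 were searched. Without vehicle replicate 3 Dio3os still fell with arsenic, and over all libraries left out in turn its log2 change lay between -4.76 and -4.14.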

How the results depend on the processing

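The same number of members, 6, was called and lower in all 17 alternatives. Their log2 changes ranged from -0.94 to -0.86 for Igf2, -0.29 to -0.20 for H19, -1.33 to -1.21 for Cdkn1c, -4.79 to -4.14 for Dio3os, -0.61 to -0.49 for Plagl1 and -0.51 to -0.41 for Mest, with the highest adjusted p at 0.0206 for H19. The other members were called in 0 of 17. Uncalled genes near 0 changed sign. With libraries left out in turn Meg3 ranged from -0.11 to 0.0018, Igf2bp1 from -0.15 to 0.22, Ndn from -0.10 to 0.036, Igf2os from -0.088 to 0.062 and Zim1, beside Peg3, from -0.072 to 0.29. Igf2bp1 was at -0.025 with upper-quartile scaling and -0.010 in DESeq2. Ndn was at 0.0017 and Igf2os at 0.0012 with DESeq2 size factors, 0.013 and 0.012 without a filter, and 0.0042 and 0.0048 in DESeq2. Without both libraries at the extremes of Xist Peg10 was at -0.024 and Igf2os at 0.073, and Igf2os was at 0.026 with Y-linked expression as a covariate. The cause of these sign changes was not tested. No paired analysis was possible because the labels give no replicate numbers that the groups share. Depth limits Dlk1, at 18 to 38 counts in a library, and Dio3.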
